A study of Mus musculus with 25 samples.

Results

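The 42 genes described here encode the structural proteins of the liver's extracellular matrix, the enzymes that cross-link and degrade it, and markers of the hepatic stellate cell. They were chosen by gene name, and all 42 were found among the 30524 genes that the deposited tables list. Hepatic stellate cells store vitamin A in the healthy liver and lie between the sinusoidal endothelium and the hepatocytes. After injury they can become myofibroblasts, which contract and secrete fibrillar collagens, and transforming growth factor beta is the best known signal for that step. Excess matrix is broken down by matrix metalloproteinases, which the tissue inhibitors of metalloproteinases (TIMPs) hold in check. Carcinogens such as diethylnitrosamine injure hepatocytes, and fibrosis often accompanies liver tumours in rodents and people.

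Liver RNA was sequenced from C3H/HeJ mice, a strain prone to liver cancer, started at 5 weeks of age and labelled male. In the DEN+CAF+SOR group (5 libraries), diethylnitrosamine was followed by caffeine and sorafenib. In DEN+CAF (5 libraries) it was followed by caffeine alone, in DEN+SOR (4 libraries) by sorafenib alone, and in DEN (6 libraries) by the drug vehicles. The Untreated group (5 libraries) received saline in place of the carcinogen, and per the protocol mice given no drug received its vehicle (tap water for caffeine, corn oil with 2% DMSO for sorafenib). Diethylnitrosamine was injected into the abdomen at 25 mg/kg, 2 times a week for 3 weeks in each of 5 cycles, and the drugs began after a month of rest. Caffeine was given into the stomach at 50 mg/kg 3 times a week and sorafenib, a kinase inhibitor used against liver cancer, at 30 mg/kg 2 times a week, both for 3 weeks. Each library is titled as 1 mouse, and the labels do not say whether tumour or surrounding tissue was taken. Levels are given as FPKM, reads scaled by gene length and by the assigned reads of the library, computed from the reads recovered from the deposited values.

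Assigned reads ran from 14750278 to 21992613 per library. Libraries Untreated 3, 4 and 5 held 13370 to 29770 reads of Xist, a non-coding RNA that female cells make from their silenced X chromosome. The other 22 libraries held at most 21, so 3 of the 5 Untreated libraries go against the label male, and the median of the tested genes of the set in each comparison with Untreated is also given without them. Mitochondrial genes took 5.65% to 34.8% of the reads, with 4 libraries over 20% (DEN 3, DEN+CAF 3, DEN+CAF 4 and DEN+SOR 4). All 14 hepatocyte markers and 21 of 26 stellate cell markers (5 of them among the 42 genes) reached 1 FPKM in at least 4 libraries. A library of whole liver tissue cannot tell a change in the number of stellate cells from a change in the RNA made by each of them.

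By limma, none of the 33 tested genes was called in any of the 9 comparisons between groups, in the caffeine by sorafenib interaction, or in the test across all 5 groups. A gene was tested where it reached 1 FPKM in at least 4 libraries, and called where its Benjamini-Hochberg adjusted p over all 12741 tested genes was under 0.05. Of the 42 genes, 9 stayed below that level and were not tested: Col5a2, Col6a2, Lama4, Lamb1, Fbn1, Eln, Lox, Loxl1 and Loxl2. For DEN against Untreated, the background was 2.04% of all tested genes called. At an unadjusted p under 0.05, 13 of the 33 genes passed, 11 higher and 2 lower in DEN livers, where 16.5% of all tested genes passed. The log2 fold changes of the tested genes had a median of 0.32 in this comparison (24 positive, 9 negative), beside 0.03 over all tested genes. These are differences in mean log2(FPKM + 1), a scale that understates the change of genes with low levels.

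When the recovered reads themselves were tested with edgeR's quasi-likelihood test, 8 of the 33 genes were called higher in DEN than in Untreated livers and 0 lower, beside 4.69% of all tested genes called and 2.63% called higher. The 8 were Col1a1, Col4a1, Col4a2, Lamc1, Nid1, Sparc, Timp1 and Tagln. DESeq2 called 9, adding Col1a2, beside 8.16% of all tested genes called and 5.02% called higher. Without DEN 4, edgeR called 1 of the 33, Col4a2 (log2 fold change 0.97, adjusted p = 0.0415), beside 2.58% of all tested genes, and without the 3 Untreated libraries that hold Xist reads it called 0, beside 0.239%. DEN 4 also held 132 reads of the Y-linked gene Ddx3y, against at least 914 in the other carcinogen-treated libraries.

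**Figure D1:**
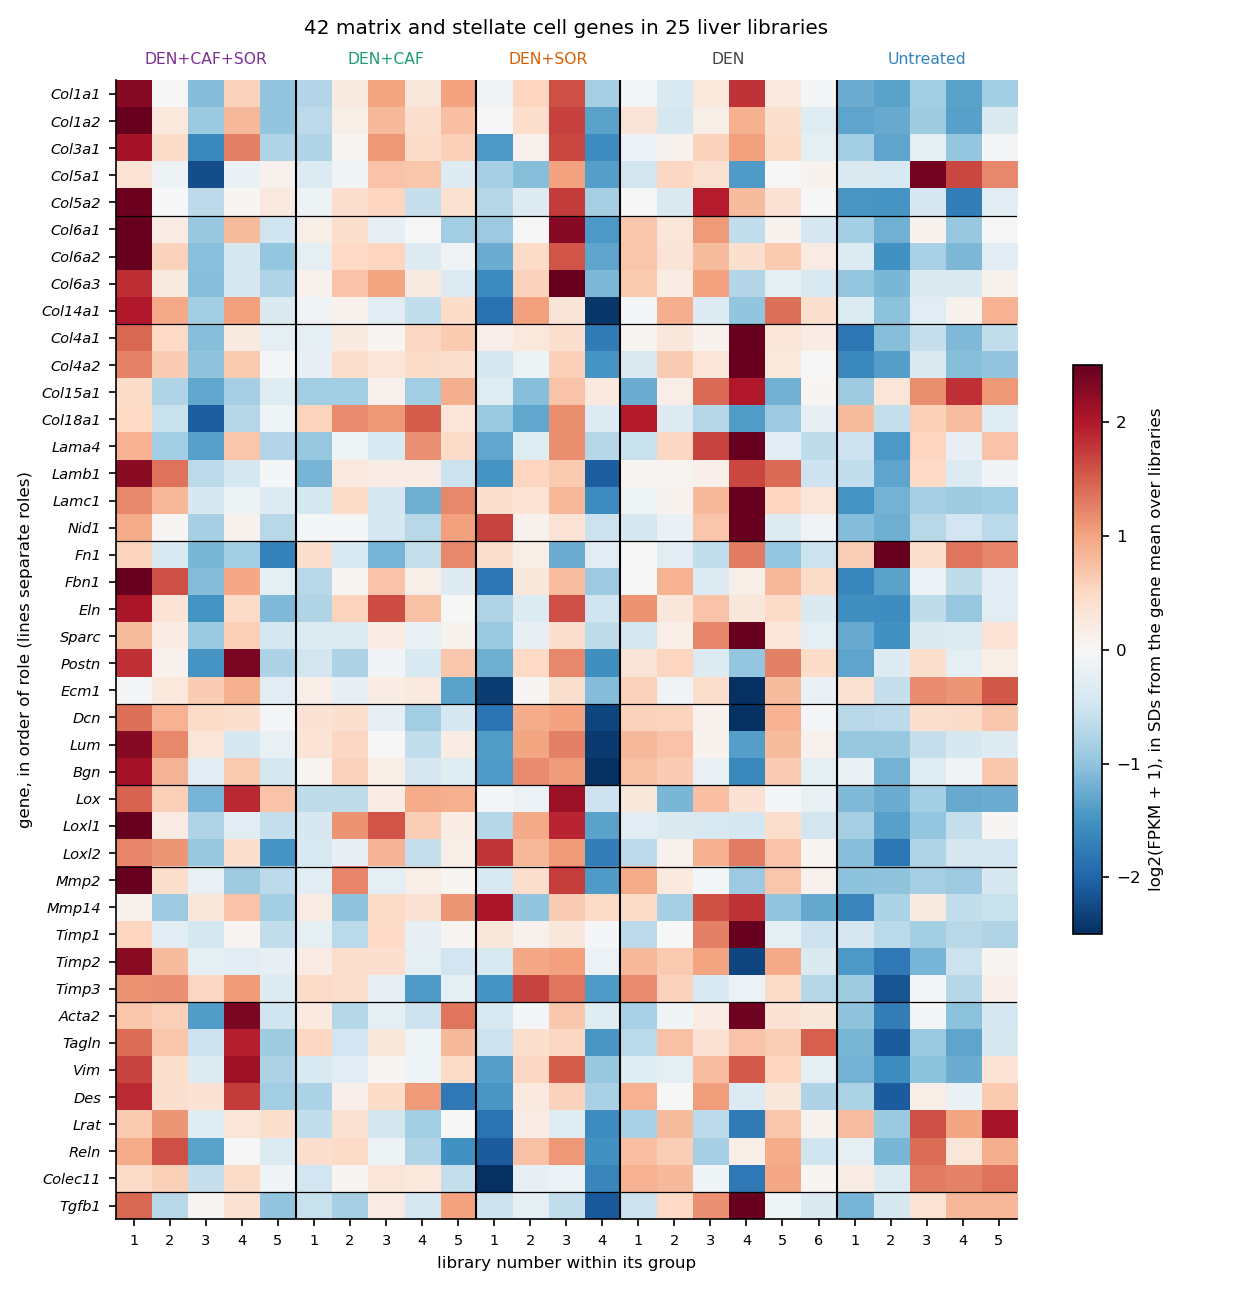
Heat map of the 42 genes (rows, in order of role) in the 25 libraries (columns, by group). Colour shows log2(FPKM + 1) in SDs from the gene's mean over all libraries, cut at 2.5. Untreated 1 and 2 and DEN+SOR 4 are blue for most rows, DEN+CAF+SOR 1 and DEN+SOR 3 are red for most, and DEN 4 mixes dark red rows such as Col4a1, Nid1, Sparc and Timp1 with dark blue ones such as Ecm1, Dcn and Timp2.

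Per length, the most abundant of the 42 genes was Col18a1, with a median of 118 FPKM over the 25 libraries, followed by Fn1 at 74.0, Ecm1 at 36.2, Dcn at 27.2 and Sparc at 17.6 FPKM. Hepatocytes are themselves known to express Col18a1, the precursor of endostatin, and to secrete fibronectin from Fn1 into plasma. The classical collagens of scar tissue stood far lower: the medians of Col1a1 and Col3a1 were 0.857 and 2.61 FPKM. In all, 16 of the 42 genes had a median under 1 FPKM and 5 were under 1 FPKM in every library.

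Fibrillar collagens form the cables of scar matrix, and type I collagen is built from Col1a1 and Col1a2 chains. Col1a1 (ENSMUSG00000001506, chr11:94827050-94843868, + strand on GRCm39) had 3.37, 0.866, 0.250, 1.32 and 0.297 FPKM in DEN+CAF+SOR livers, 0.422, 1.04, 1.71, 1.07 and 1.73 in DEN+CAF and 0.811, 1.29, 2.40 and 0.372 in DEN+SOR. In DEN livers it had 0.623 (lowest), 0.956 (median) and 2.67 FPKM (highest, DEN 4), against 0.184, 0.136, 0.362, 0.142 and 0.362 FPKM in Untreated livers. Every DEN, DEN+CAF and DEN+SOR library lay above every Untreated library, while DEN+CAF+SOR 3 and 5 lay within the Untreated range. The mean was 1.18 ± 0.743 FPKM in DEN and 0.237 ± 0.115 FPKM in Untreated livers (SD, n = 6 and 5), a log2 fold change of 0.77 with SE 0.28 and a limma adjusted p of 0.153. Without DEN 4 the DEN mean was 0.889 ± 0.182 FPKM (n = 5) and the log2 fold change 0.61. The edgeR log2 fold change, on the scale of reads, was 2.33 (adjusted p = 0.0261), and 1.88 without DEN 4 (adjusted p = 0.0786). The counts behind Col1a1 are small, 15 to 412 reads per library.

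Col1a2, the second type I chain, ran from 0.650 to 1.36 FPKM in DEN and 0.275 to 0.676 FPKM in Untreated livers, with the groups overlapping only between DEN 2 and Untreated 5. Col3a1, the type III chain that is prominent in young scars, ran from 2.13 to 4.85 FPKM in DEN and 0.809 to 2.41 FPKM in Untreated livers (log2 fold change 0.71, SE 0.41). The type V chains, which set the diameter of collagen fibrils, had opposite signs. Col5a1 had a log2 fold change of -0.36 (SE 0.19) in DEN against Untreated livers, whereas the untested Col5a2 was at 0.36. Col5a1 was at 2.53, 1.97 and 1.66 FPKM in the Untreated libraries with Xist reads and at 0.847 and 0.838 FPKM in the other pair. Without those 3 libraries its log2 fold change was 0.076.

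Type VI collagen makes beaded microfibrils around cells, and Col14a1 encodes a collagen that decorates fibril surfaces. Of this class Col6a1 (ENSMUSG00000001119, chr10:76544626-76562002, - strand) had the largest log2 fold change in DEN against Untreated livers, 0.31 with SE 0.24 (limma adjusted p = 0.564). Its levels were 4.06, 1.45, 0.784, 1.90 and 1.02 FPKM in DEN+CAF+SOR, 1.43, 1.63, 1.19, 1.32 and 0.822 in DEN+CAF and 0.806, 1.31, 3.39 and 0.557 in DEN+SOR livers. They were 0.961 (lowest), 1.46 (median) and 2.13 FPKM (highest, DEN 3) in DEN livers, against 0.828, 0.663, 1.38, 0.780 and 1.33 FPKM in Untreated livers. The 2 highest values of all 25 were those of DEN+CAF+SOR 1 and DEN+SOR 3, and the DEN and Untreated ranges overlapped. Col6a3 and Col14a1 had log2 fold changes of 0.22 and 0.20. Col6a2, which was not tested, ran from 0.505 to 0.671 FPKM in DEN and 0.107 to 0.380 FPKM in Untreated livers, with every DEN library above every Untreated library.

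Basement membrane genes held 4 of the 8 edgeR calls for DEN against Untreated. Type IV collagen, the network of basement membranes, is built mostly from Col4a1 and Col4a2 chains, whose genes lie head to head and share a promoter region. On GRCm39 the tables place Col4a1 at ENSMUSG00000031502, chr8:11248423-11362826, - strand and Col4a2 at ENSMUSG00000031503, chr8:11362805-11499287, + strand. Their promoter windows of 300 bases (250 before and 50 after the start site, RefSeq on GRCm38.p6, the reference strain and not C3H/HeJ) overlap by 78 bases. They are shown because both genes had nearly the same difference between DEN and Untreated livers, each 5′ to 3′ on its own strand, with the 78 shared bases in capitals. The windows are chr8:11312777-11313076, - strand, for Col4a1 and chr8:11312555-11312854, + strand, for Col4a2.
Col4a1: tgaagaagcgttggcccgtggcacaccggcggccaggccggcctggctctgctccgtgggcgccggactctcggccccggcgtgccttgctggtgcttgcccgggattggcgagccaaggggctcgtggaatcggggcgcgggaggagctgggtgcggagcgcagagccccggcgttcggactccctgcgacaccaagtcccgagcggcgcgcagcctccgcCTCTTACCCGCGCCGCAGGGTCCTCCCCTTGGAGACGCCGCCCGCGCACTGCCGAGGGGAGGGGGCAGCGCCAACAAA
Col4a2: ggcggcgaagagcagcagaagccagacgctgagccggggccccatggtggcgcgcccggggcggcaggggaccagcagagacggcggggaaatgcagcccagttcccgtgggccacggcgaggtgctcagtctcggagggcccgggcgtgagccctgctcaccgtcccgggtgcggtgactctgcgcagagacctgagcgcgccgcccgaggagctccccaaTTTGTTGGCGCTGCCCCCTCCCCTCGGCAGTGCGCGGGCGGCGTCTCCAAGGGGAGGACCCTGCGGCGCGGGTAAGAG

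Col4a1 had 6.70, 4.26, 1.80, 3.71 and 2.90 FPKM in DEN+CAF+SOR livers, 2.93, 3.73, 3.37, 4.33 and 4.61 in DEN+CAF and 3.51, 3.78, 4.11 and 1.11 in DEN+SOR. DEN livers held 3.37 (lowest), 3.73 (median) and 14.4 FPKM (highest, DEN 4) of Col4a1, against 1.06, 1.80, 2.41, 1.75 and 2.36 FPKM in Untreated livers. All 6 DEN libraries lay above all 5 Untreated ones, and DEN 4 stood apart from the other DEN libraries. Col4a2 had 4.71, 3.53, 1.45, 3.57 and 2.50 FPKM in DEN+CAF+SOR livers, 2.31, 3.20, 2.99, 3.26 and 3.16 in DEN+CAF and 2.06, 2.41, 3.47 and 1.05 in DEN+SOR. For Col4a2, DEN livers held 2.11 (lowest), 2.98 (median) and 10.6 FPKM (highest, DEN 4), against 0.942, 1.13, 2.13, 1.38 and 1.47 FPKM in Untreated livers. Here DEN 1 lay just below the highest Untreated library. The log2 fold change for DEN against Untreated was 1.00 for Col4a1 (SE 0.29, limma adjusted p = 0.0726) and 0.94 for Col4a2 (SE 0.26, limma adjusted p = 0.0591). Without DEN 4 they were 0.71 and 0.68. By edgeR they were 1.53 and 1.55 (adjusted p = 0.0226 and 0.0160).

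Nid1 encodes nidogen, which ties the laminin and type IV collagen networks together (ENSMUSG00000005397, chr13:13612136-13686854, + strand on GRCm39). Its promoter window (chr13:13437352-13437651, + strand, GRCm38.p6) is shown with its GC box, GGGCGG on either strand, in capitals.
Nid1: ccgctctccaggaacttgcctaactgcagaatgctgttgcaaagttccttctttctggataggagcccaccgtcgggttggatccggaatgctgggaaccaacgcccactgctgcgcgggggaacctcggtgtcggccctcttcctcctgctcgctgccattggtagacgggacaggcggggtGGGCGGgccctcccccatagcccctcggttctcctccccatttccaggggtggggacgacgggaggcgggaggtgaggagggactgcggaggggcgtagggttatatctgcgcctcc
Nid1 had 4.51, 2.38, 1.11, 2.49 and 1.29 FPKM in DEN+CAF+SOR livers, 2.27, 2.25, 1.63, 1.29 and 4.79 in DEN+CAF and 7.31, 2.55, 3.00 and 1.48 in DEN+SOR. It reached 1.67 (lowest), 2.12 (median) and 21.5 FPKM (highest, DEN 4) in DEN livers, against 0.861, 0.717, 1.28, 1.58 and 1.31 FPKM in Untreated livers. The DEN range lay wholly above the Untreated range, and the next DEN library after DEN 4 was DEN 3 at 3.85 FPKM. The DEN mean was 5.52 ± 7.89 FPKM, or 2.31 ± 0.884 without DEN 4, against 1.15 ± 0.354 FPKM in Untreated livers (SD, n = 6, 5 and 5). The log2 fold change was 1.07 (SE 0.42, limma adjusted p = 0.194) and 0.60 without DEN 4. By edgeR it was 2.30 (adjusted p = 0.0332), and 1.00 without DEN 4 (adjusted p = 0.185).

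Lamc1, the gamma chain that most laminins share (ENSMUSG00000026478, chr1:153094668-153208532, - strand), had 1.98, 1.76, 1.17, 1.29 and 1.20 FPKM in DEN+CAF+SOR livers, 1.15, 1.57, 1.16, 0.846 and 1.97 in DEN+CAF and 1.55, 1.51, 1.76 and 0.721 in DEN+SOR. DEN livers held 1.30 (lowest), 1.55 (median) and 3.07 FPKM (highest, DEN 4) of Lamc1, against 0.746, 0.860, 0.990, 0.970 and 0.978 FPKM in Untreated livers. Both DEN and DEN+CAF+SOR lay wholly above Untreated, with a log2 fold change of 0.51 (SE 0.15, limma adjusted p = 0.0770) for DEN. The other laminin chains, Lama4 and Lamb1, were too low to test, at no more than 0.756 and 0.980 FPKM in any library. The collagens of the zone next to basement membranes had negative values: -0.19 (SE 0.22) for Col15a1 and -0.11 (SE 0.14) for Col18a1. Col18a1 ran from 98.5 to 162 FPKM in DEN and 111 to 136 FPKM in Untreated livers.

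**Figure D2:**
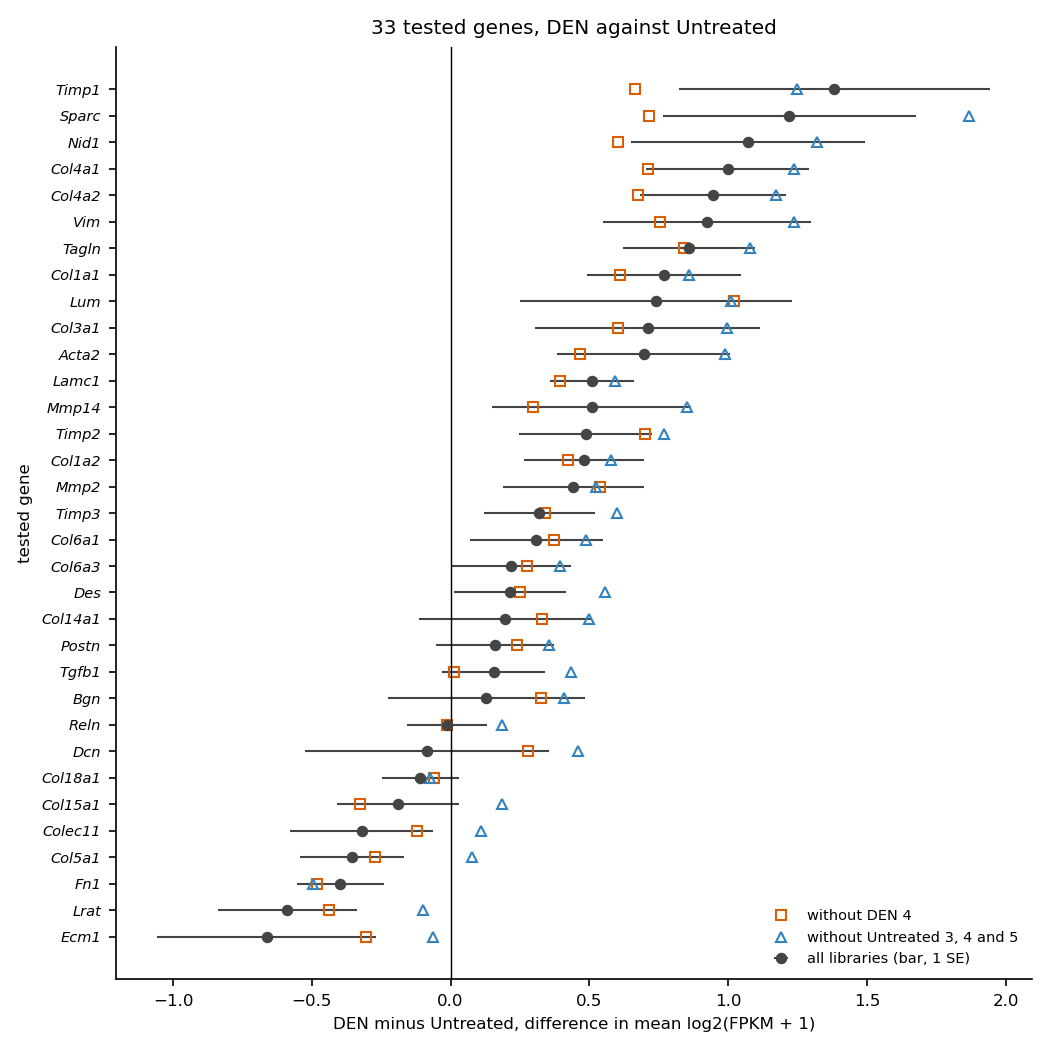
Difference in mean log2(FPKM + 1) between DEN and Untreated livers for the 33 tested genes (circles, bars of 1 SE), with the same difference without DEN 4 (squares) and without Untreated 3, 4 and 5 (triangles). The squares of Timp1, Sparc, Nid1, Col4a1 and Col4a2 lie left of their circles, and triangles lie right of the circles for most genes, so 29 of 33 are positive without the Untreated libraries that hold Xist reads.

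Among the glycoproteins, Sparc encodes a collagen-binding protein secreted by stellate and endothelial cells (ENSMUSG00000018593, chr11:55285326-55314009, - strand). Its promoter window (chr11:55420031-55420330, - strand, GRCm38.p6) is shown with the SMAD element, CAGAC on either strand, in capitals, since it held no GC box.
Sparc: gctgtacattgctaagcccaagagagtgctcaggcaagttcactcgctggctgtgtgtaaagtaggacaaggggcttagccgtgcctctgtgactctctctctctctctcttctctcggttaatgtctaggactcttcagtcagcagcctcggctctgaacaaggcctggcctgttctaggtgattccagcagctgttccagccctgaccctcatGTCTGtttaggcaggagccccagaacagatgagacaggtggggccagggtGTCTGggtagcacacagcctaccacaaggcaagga
Sparc had 32.4, 22.8, 11.1, 28.9 and 15.4 FPKM in DEN+CAF+SOR livers, 16.3, 16.3, 22.3, 17.9 and 21.0 in DEN+CAF and 11.0, 17.6, 26.1 and 13.4 in DEN+SOR. In DEN livers it had 15.2 (lowest), 23.2 (median) and 193 FPKM (highest, DEN 4), against 8.98, 7.54, 15.9, 16.1 and 24.7 FPKM in Untreated livers. The DEN and Untreated ranges overlapped, and DEN 4 was the highest of all 25 libraries. Between DEN and Untreated the log2 fold change was 1.22 (SE 0.46, limma adjusted p = 0.170), and 0.71 without DEN 4. The edgeR value was 1.89 (adjusted p = 0.0458), and 0.73 without DEN 4 (adjusted p = 0.258).

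Fn1 and Ecm1 were lower on average in DEN than in Untreated livers, and neither was called. Fn1, fibronectin, averaged 68.5 ± 12.1 FPKM in DEN+CAF+SOR, 77.3 ± 14.7 in DEN+CAF, 75.1 ± 10.7 in DEN+SOR and 76.0 ± 13.2 in DEN livers, against 100.5 ± 17.1 FPKM in Untreated livers (SD, n = 5, 5, 4, 6 and 5). Its log2 fold change was -0.55 in DEN+CAF+SOR (SE 0.16, limma adjusted p = 0.142) and -0.40 in DEN (SE 0.16, limma adjusted p = 0.194), each against Untreated. Ecm1, a secreted glycoprotein that in mice restrains the activation of latent transforming growth factor beta, ran from 7.94 to 49.6 FPKM in DEN and 24.5 to 73.0 FPKM in Untreated livers. Its log2 fold change was -0.66 (SE 0.39), but -0.064 without the Untreated libraries with Xist reads. Postn, periostin, was at 0.16 (SE 0.21). The elastic fibre genes Fbn1 and Eln were not tested, and ran up to 0.673 and 1.06 FPKM, both in DEN+CAF+SOR 1.

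Small leucine-rich proteoglycans bind collagen fibrils and control their spacing. Lum, lumican (ENSMUSG00000036446, chr10:97400990-97408565, + strand), had 18.3, 8.92, 4.71, 2.70 and 3.25 FPKM in DEN+CAF+SOR livers, 4.85, 5.55, 3.71, 2.25 and 4.32 in DEN+CAF and 1.02, 7.73, 9.40 and 0.0831 in DEN+SOR. DEN livers had 1.04 (lowest), 5.24 (median) and 6.84 FPKM (highest, DEN 1) of Lum, against 1.66, 1.65, 2.27, 2.73 and 2.88 FPKM in Untreated livers. Of the 6 DEN libraries 5 lay above every Untreated library, and DEN 4 lay below all of them. DEN+SOR 4 held only 3 reads of Lum. For Lum the log2 fold change was 0.74 (SE 0.49, limma adjusted p = 0.483), and 1.02 without DEN 4. Dcn, decorin, and Bgn, biglycan, were at -0.085 (SE 0.44) and 0.13 (SE 0.36), with Dcn at 0.28 without DEN 4. DEN 4 was the lowest DEN library for all 3 proteoglycans while it was the highest for Col1a1, Col1a2 and Col3a1.

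Lysyl oxidases cross-link collagen and elastin. None of the 3 was tested: Lox stayed at 0.0108 to 0.401 FPKM, Loxl2 at 0.165 to 0.856 and Loxl1 at 0.0180 to 2.02 FPKM over the 25 libraries. Lox had 1 to 35 reads per library. Its 0.0738, 0.0736, 0.161, 0.248 and 0.243 FPKM in DEN+CAF and 0.135, 0.126, 0.401 and 0.0851 FPKM in DEN+SOR livers lay above the 0.0266, 0.0124, 0.0523, 0.0108 and 0.0127 FPKM of Untreated livers without overlap. In DEN+CAF+SOR and DEN livers Lox ran from 0.0215 to 0.368 and 0.0231 to 0.227 FPKM, and overlapped Untreated.

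Of the proteases, Mmp14 encodes the membrane-bound collagenase that activates the gelatinase encoded by Mmp2. Mmp14 ran from 3.67 to 17.1 FPKM in DEN and 2.99 to 8.06 FPKM in Untreated livers (log2 fold change 0.51, SE 0.36). Mmp2 stood at 0.211 to 1.12 FPKM in DEN and 0.170 to 0.415 FPKM in Untreated livers (0.44, SE 0.25). Timp1, the inhibitor most induced in injured liver (ENSMUSG00000001131, chrX:20736405-20740974, + strand), had the largest log2 fold change of the 33 genes. Its promoter window (chrX:20869916-20870215, + strand, GRCm38.p6) is shown with its GC box in capitals.
Timp1: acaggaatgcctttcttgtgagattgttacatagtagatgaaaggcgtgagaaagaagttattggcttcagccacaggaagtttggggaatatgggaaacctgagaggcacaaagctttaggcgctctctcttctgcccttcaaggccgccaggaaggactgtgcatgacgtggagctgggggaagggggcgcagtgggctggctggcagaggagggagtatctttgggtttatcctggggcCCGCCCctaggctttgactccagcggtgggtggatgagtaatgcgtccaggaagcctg
Timp1 had 1.69, 0.512, 0.346, 0.900 and 0.188 FPKM in DEN+CAF+SOR livers, 0.567, 0.132, 1.61, 0.579 and 0.915 in DEN+CAF and 1.23, 0.985, 1.23 and 0.763 in DEN+SOR. DEN livers held 0.142 (lowest), 0.687 (median) and 34.8 FPKM (highest, DEN 4) of Timp1, against 0.358, 0.134, 0, 0.117 and 0.0685 FPKM in Untreated livers. The DEN range was the widest of the 5 groups, with DEN 1 and DEN 6 inside the Untreated range and DEN 3, the next after DEN 4, at 3.48 FPKM. The 4 DEN+SOR libraries lay close together and above all Untreated ones. DEN against Untreated gave a log2 fold change of 1.38 (SE 0.56, limma adjusted p = 0.210), and 0.66 without DEN 4. By edgeR it was 5.60 (adjusted p = 0.0128), and 2.92 without DEN 4 (adjusted p = 0.0746). Timp1 had 0 to 609 reads per library with a median of 10, and its gene overlaps Syn1 on the other strand, so reads of the pair cannot be told apart if strand was not used in counting. Timp2 and Timp3 were at 0.49 (SE 0.24) and 0.32 (SE 0.20).

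**Figure D3:**
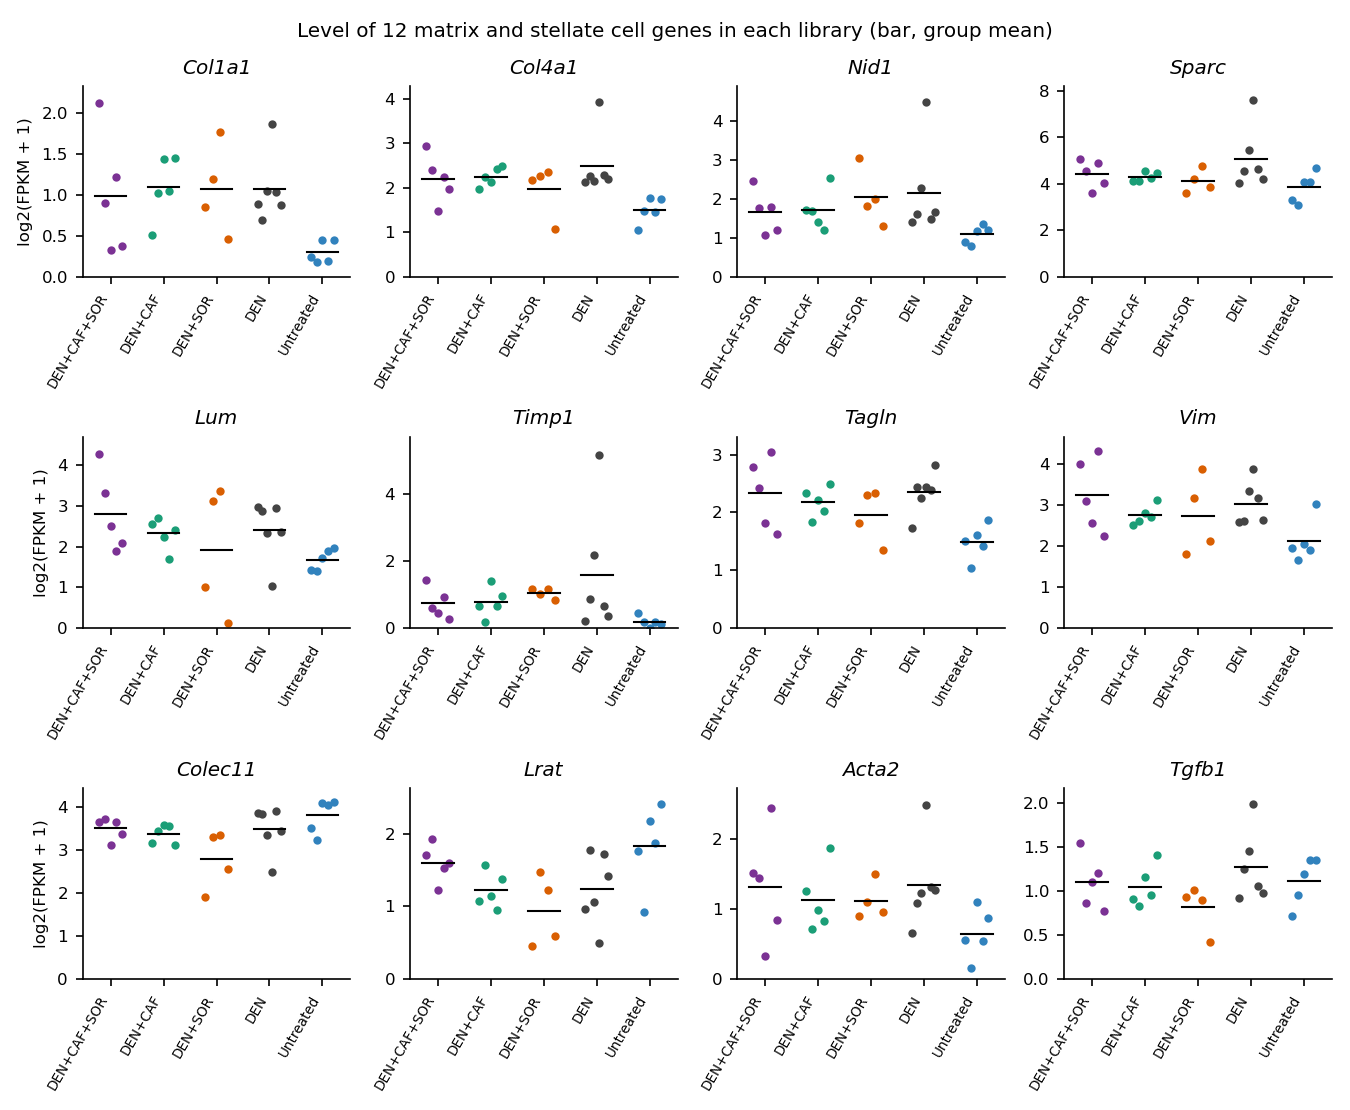
Level of 12 of the genes, as log2(FPKM + 1), in each of the 25 libraries, by group, with the group mean as a bar. DEN 4 is the topmost DEN point for Col4a1, Nid1, Sparc and Timp1 and the lowest DEN point for Lum, Lrat and Colec11, while Col1a1 separates DEN, DEN+CAF and DEN+SOR from Untreated.

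Of the 7 stellate cell and myofibroblast genes, Vim, Tagln and Acta2 had the largest differences between DEN and Untreated livers, and none of the 7 was called by limma. Vim, the intermediate filament vimentin of mesenchymal cells and leukocytes (ENSMUSG00000026728, chr2:13578738-13587637, + strand), had 15.1, 7.65, 4.88, 18.9 and 3.71 FPKM in DEN+CAF+SOR livers, 4.72, 5.09, 6.03, 5.60 and 7.74 in DEN+CAF and 2.49, 8.00, 13.8 and 3.33 in DEN+SOR. Vim stood at 4.97 (lowest), 6.61 (median) and 13.9 FPKM (highest, DEN 4) in DEN livers, against 2.86, 2.16, 3.14, 2.72 and 7.20 FPKM in Untreated livers. Only Untreated 5 reached the DEN range. Vim had a log2 fold change of 0.92 (SE 0.38, limma adjusted p = 0.210). Tagln, an actin-binding protein of contractile cells (ENSMUSG00000032085, chr9:45840917-45847356, - strand), had the smallest limma adjusted p of the 33 genes, 0.0581, with a log2 fold change of 0.86 (SE 0.24). Its levels were 5.86, 4.37, 2.53, 7.26 and 2.10 FPKM in DEN+CAF+SOR, 4.03, 2.56, 3.65, 3.05 and 4.59 in DEN+CAF and 2.50, 3.91, 4.05 and 1.53 in DEN+SOR livers. DEN livers held 2.32 (lowest), 4.31 (median) and 6.06 FPKM (highest, DEN 6) of Tagln, against 1.82, 1.04, 2.04, 1.67 and 2.66 FPKM in Untreated livers. All but DEN 1 lay above the Untreated range. Without DEN 1, the lowest DEN library for both genes, limma called Tagln (adjusted p = 0.0290) and Col4a2 (adjusted p = 0.0387). That fit called 2.51% of all tested genes. Without Untreated 2 the log2 fold change of Tagln was 0.75. Tagln overlaps Pcsk7 on the other strand, which had up to 806 reads against 271 for Tagln, and the use of strand in counting is not given in the sources used here.

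Acta2, the smooth muscle actin by which myofibroblasts are recognised, was low, at 0.576 to 4.57 FPKM in DEN and 0.108 to 1.14 FPKM in Untreated livers (log2 fold change 0.70, SE 0.31, limma adjusted p = 0.260). The other 4 genes had values on both sides of 0, and none was called. Lrat, which esterifies vitamin A for storage, was at -0.59 (SE 0.25), Colec11, a collectin secreted by stellate cells in mice, at -0.32 (SE 0.26), and Reln, reelin, at -0.013 (SE 0.14). On the other side of 0, Des, desmin, was at 0.21 (SE 0.20). Without the Untreated libraries that hold Xist reads, Lrat was at -0.10, Colec11 at 0.11 and Reln at 0.19. Lrat had 3.53, 2.65 and 4.32 FPKM in Untreated 3 to 5 and 2.39 and 0.886 FPKM in Untreated 1 and 2.

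Tgfb1, the ligand (ENSMUSG00000002603, chr7:25386427-25404502, + strand), had 1.92, 0.821, 1.15, 1.30 and 0.706 FPKM in DEN+CAF+SOR livers, 0.879, 0.767, 1.22, 0.929 and 1.66 in DEN+CAF and 0.898, 1.02, 0.858 and 0.336 in DEN+SOR. DEN livers held 0.890 (lowest), 1.22 (median) and 2.97 FPKM (highest, DEN 4) of Tgfb1, against 0.643, 0.941, 1.29, 1.55 and 1.56 FPKM in Untreated livers. The ranges of all 5 groups overlapped. The log2 fold change for DEN against Untreated was 0.16 (SE 0.19, limma adjusted p = 0.734), 0.013 without DEN 4, and its edgeR value was 0.33, or -0.013 without DEN 4.

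The Untreated libraries differed among themselves over the whole set. Of the 42 genes, 37 had their lowest Untreated level in Untreated 1 or 2, the pair with few Xist reads, beside 59.8% of all tested genes. Untreated 5 was the highest Untreated library for 24 genes (57.1%, beside 17.8% of all tested genes). Against Untreated 1 and 2 alone, 29 of the 33 tested genes had a positive log2 fold change in DEN livers, with a median of 0.55 beside 0.12 over all tested genes. Col5a1, Col15a1, Dcn, Reln and Colec11 were negative against all 5 Untreated libraries and positive there. Of the 8 genes that edgeR called, Col1a1 had a log2 fold change of 0.86 there, Col4a1 1.24, Col4a2 1.17, Lamc1 0.59, Nid1 1.32, Sparc 1.87, Timp1 1.25 and Tagln 1.08. All but Timp1 were further from 0 than against all 5. Limma called 0 of the 33 there, beside 0.271% of all tested genes, with 13 at an unadjusted p under 0.05 and 12.5% of all tested genes at that level.

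Groups that did not overlap were counted over all 42 genes. In DEN livers 5 genes stood wholly above Untreated (Col1a1, Col6a2, Col4a1, Lamc1 and Nid1), and 0 wholly below, beside 2.6% and 1.33% of all tested genes. In DEN+CAF livers 5 did so (Col1a1, Col4a1, Col4a2, Lox and Mmp2), beside 4.12%. In DEN+SOR livers there were 3 (Col1a1, Lox and Timp1), beside 4.29%. In DEN+CAF+SOR livers there was 1 (Lamc1), beside 3.12%. Mmp2 ran from 0.478 to 1.32 FPKM in DEN+CAF and 0.170 to 0.415 FPKM in Untreated livers. Col6a2 and Lox were among the 9 genes not tested, and none of the 42 genes stood wholly below Untreated in any group (1.39% of all tested genes in DEN+CAF, 2.99% in DEN+SOR and 1.48% in DEN+CAF+SOR). Between carcinogen-treated groups 0 of the 42 separated. The shares of all tested genes that stood wholly higher and lower there were 0.126% and 0.165% for DEN+CAF+SOR against DEN, 0.212% and 0.0549% for DEN+CAF against DEN, and 0.267% and 0.432% for DEN+SOR against DEN. They were 0.408% and 0.447% for DEN+CAF+SOR against DEN+SOR and 0.157% and 0.84% for DEN+CAF+SOR against DEN+CAF.

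The drug groups were also tested against Untreated, which gives 3 more comparisons that share the same 5 Untreated libraries. The members' values are therefore given side by side. Median log2 fold changes of the 33 genes were 0.44 in DEN+CAF+SOR, 0.27 in DEN+CAF and 0.25 in DEN+SOR, each against Untreated. With Untreated 1 and 2 alone as the controls they were 0.68, 0.45 and 0.43, beside 0.12, 0.14 and 0.09 over all tested genes. Limma called 0 members with those controls, beside 0.0239%, 0.151% and 0.247% of all tested genes. Against all 5 Untreated libraries the DEN+SOR value was -0.08 without DEN+SOR 3 and 0.42 without DEN+SOR 4. With all libraries kept, limma called 0 members in each comparison, beside 0.494%, 1.01% and 2.62% of all tested genes. Members at an unadjusted p under 0.05 numbered 12, 7 and 7, where 11.5%, 12.3% and 18.6% of all tested genes reached it. By edgeR, DEN+CAF+SOR and DEN+CAF had 0 calls, beside 1.3% and 1.71% of all tested genes, and DEN+SOR had 2, beside 4.14%. Without DEN 4, which is in none of these 4 groups, edgeR called 4 in DEN+CAF+SOR (Col1a1, Col4a2, Tagln and, lower, Fn1), 2 in DEN+CAF (Col1a1 and Col4a2) and 4 in DEN+SOR (Col1a1, Nid1 and, lower, Lrat and Colec11), beside 2.31%, 2.84% and 7.22% of all tested genes. In the test across all 5 groups, edgeR called 1 member, Timp1, beside 2.17% of all tested genes. Limma called 0 there, beside 0.95%, and 7 members had an unadjusted p under 0.05, beside 11.4%.

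Of those 2 edgeR calls in DEN+SOR against Untreated, Col1a1 was higher (log2 fold change 2.30, adjusted p = 0.0399) and Colec11 lower (-1.07, adjusted p = 0.0404). Colec11 (ENSMUSG00000036655, chr12:28644172-28673376, - strand) had 11.6, 12.1, 7.62, 11.5 and 9.26 FPKM in DEN+CAF+SOR livers, 7.92, 9.79, 10.9, 10.7 and 7.56 in DEN+CAF and 2.73, 8.84, 9.09 and 4.89 in DEN+SOR. It stood at 4.60 (lowest), 11.5 (median) and 14.0 FPKM (highest, DEN 5) in DEN livers, against 10.4, 8.38, 15.9, 15.6 and 16.3 FPKM in Untreated livers. DEN+SOR 1 was the lowest of all 25 libraries, and the DEN+SOR range overlapped Untreated only through Untreated 2. The limma log2 fold change of Colec11 in DEN+SOR against Untreated was -1.02 (SE 0.29, adjusted p = 0.0540). Limma called it without DEN 4 (adjusted p = 0.0207), without DEN+SOR 2 (0.0315) and without Untreated 2 (0.0376). The shares of all tested genes called in those fits were 4.10%, 3.69% and 2.08%. Leaving out 1 library of these groups at a time, its log2 fold change ran from -1.21 (without DEN+SOR 3) to -0.73 (without DEN+SOR 1). Its log2 fold change was -0.59 without the Untreated libraries with Xist reads (adjusted p = 0.525).

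No member was called for caffeine after the carcinogen. For DEN+CAF against DEN, limma called 0 of the 33 genes beside 0.00785% of all tested genes, and 0 had an unadjusted p under 0.05 beside 2.81%. The median log2 fold change was -0.11 (9 positive, 24 negative), beside 0.02 over all tested genes, and was -0.068 without DEN 5. All 7 stellate cell and myofibroblast genes were negative, between -0.28 and -0.018, though Acta2 turned positive without DEN 4 and Lrat with mitochondrial reads left out of the total. The wider list of stellate cell markers was mixed, with 6 of 21 tested genes positive and 15 negative (median -0.049). Among the 33 genes the 2 most negative values were Timp1 (-0.80, SE 0.56) and Sparc (-0.78, SE 0.46), for both of which DEN 4 was the highest DEN library. Without it they were -0.076 and -0.28.

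Sorafenib after the carcinogen gave lower values for most of the set, none of which was called. For DEN+SOR against DEN, 29 of 33 log2 fold changes were negative, with a median of -0.21 beside -0.02 over all tested genes. Limma called 0 members and 0% of all tested genes, and edgeR called 0 members. At an unadjusted p under 0.05 there were 2 members, beside 6.19% of all tested genes: Colec11 (-0.70, SE 0.27, adjusted p = 0.769) and Tgfb1 (-0.46, SE 0.20, adjusted p = 0.787). Colec11 was at -0.41 without DEN+SOR 1. The median ran from -0.39 without DEN+SOR 3 to -0.059 without DEN+SOR 4. Without DEN 4 it was -0.15, with 25 of 33 negative. All 7 stellate cell genes were negative, with Acta2 positive without DEN 4. Of the 21 tested genes in the wider list of stellate cell markers, 6 were positive and 15 negative (median -0.14). All 6 tested basement membrane genes were negative, with Nid1 and Col15a1 positive without DEN 4 and Col18a1 positive by edgeR and with mitochondrial reads left out.

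With both drugs the median of the set was close to that of DEN alone. For DEN+CAF+SOR against DEN the median log2 fold change was -0.0049 (15 positive, 18 negative), and 0 members had an unadjusted p under 0.05, beside 2.72% of all tested genes. Limma and edgeR each called 0 members and 0% of all tested genes. The 3 proteoglycans were positive, 0.40 for Lum (SE 0.49), 0.53 for Dcn (SE 0.44) and 0.35 for Bgn (SE 0.36). For all 3, DEN 4 was the lowest DEN library and DEN+CAF+SOR 1 the highest of its group. All 6 tested basement membrane genes were negative, between -0.50 and -0.069, with Col4a2 positive without DEN 4. The median was -0.12 without DEN+CAF+SOR 1 and 0.13 without DEN+CAF+SOR 3.

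Adding caffeine to sorafenib gave 25 positive and 8 negative log2 fold changes (DEN+CAF+SOR against DEN+SOR), with a median of 0.23 beside 0.03 over all tested genes. The median was 0.068 without DEN+SOR 4 and 0.39 without DEN+SOR 3. Lrat (0.66, SE 0.28) and Colec11 (0.72, SE 0.29) had an unadjusted p under 0.05, where 3.39% of all tested genes did, and neither was called (0% of all tested genes). Colec11 was at 0.43 without DEN+SOR 1. For sorafenib added to caffeine (DEN+CAF+SOR against DEN+CAF) the median was 0.10, but -0.0079 without DEN+CAF+SOR 1 and 0.23 without DEN+CAF+SOR 3. There 1 member, Col18a1 (-0.32, SE 0.15), had an unadjusted p under 0.05, beside 2.95%. The interaction of caffeine and sorafenib, which asks whether caffeine's effect differs with sorafenib, was positive for 27 of 33 genes, with a median of 0.41 beside 0.01 over all tested genes. It ran from 0.19 without DEN+SOR 4 to 0.54 without DEN+SOR 3. Its only member with an unadjusted p under 0.05 was Colec11 (0.84, SE 0.38, limma adjusted p = 0.992), beside 3.97% of all tested genes, and limma called 0% of all tested genes. In the 5 comparisons among carcinogen-treated groups and in the interaction, edgeR called 0 members too. Its share of all tested genes called was 0% in all but DEN+CAF against DEN (0.00785%). Members at an unadjusted edgeR p under 0.05 numbered 0 to 6, beside 3.31% to 7.48% of all tested genes. The 6 were in DEN+SOR against DEN, where 7.48% of all tested genes passed.

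**Figure D4:**
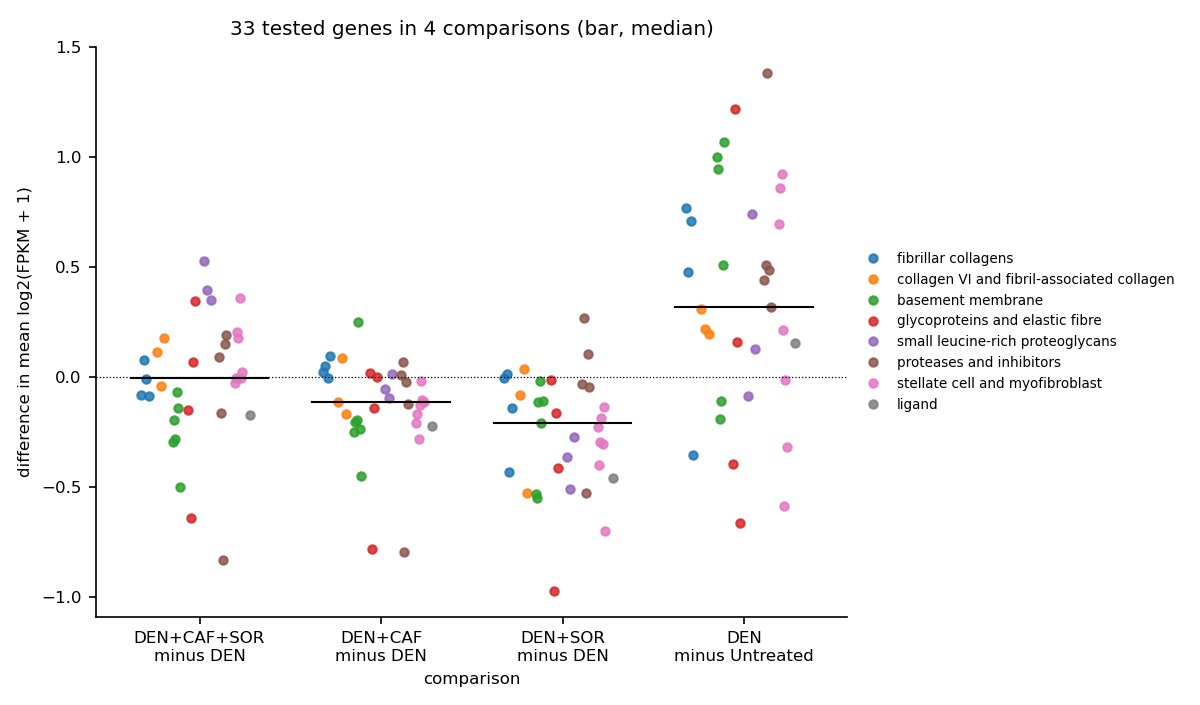
Difference in mean log2(FPKM + 1) of the 33 tested genes in 4 comparisons, coloured by role, with the median of all 33 as a bar. The medians are -0.0049 for DEN+CAF+SOR, -0.11 for DEN+CAF and -0.21 for DEN+SOR, each minus DEN, and 0.32 for DEN minus Untreated.

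Single libraries carried much of the spread within groups. DEN+SOR 3 was the highest DEN+SOR library for 33 of the 42 genes (78.6%, beside 29.4% of all tested genes), and DEN+CAF+SOR 1 the highest of its group for 31 (73.8%, beside 33.5%). DEN+CAF+SOR 3 was the lowest of its group for 26 (61.9%, beside 29.6%). DEN+SOR 4 was the lowest for 24 (57.1%), but it was the lowest for 54.7% of all tested genes too. DEN 4 was both the highest DEN library for 18 genes and the lowest for 14, beside 21.6% and 29.2% of all tested genes.

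Beside their matrix genes, DEN+CAF+SOR 1 and DEN+SOR 3 were each the highest of their group in portal fibroblast and cholangiocyte markers. Portal fibroblast markers, the cells that make collagen around bile ducts, summed to 105 FPKM in DEN+CAF+SOR 1 and 84.9 in DEN+SOR 3. The ranges of that sum over the groups were 21.7 to 105 in DEN+CAF+SOR, 28.3 to 68.1 in DEN+CAF, 31.5 to 84.9 in DEN+SOR, 32.0 to 64.3 in DEN and 16.3 to 38.1 FPKM in Untreated livers. Of its 13 genes 8 reached 1 FPKM in at least 4 libraries, and the medians of Fbln1, Pi16 and Gli1 were under 0.1 FPKM. Cholangiocyte markers summed to 184 FPKM in DEN+CAF+SOR 1 and 212 in DEN+SOR 3, with 34.6 to 184 in DEN+CAF+SOR, 49.5 to 133 in DEN+CAF, 27.1 to 212 in DEN+SOR, 37.4 to 98.9 in DEN and 15.6 to 20.8 FPKM in Untreated livers. Of its 12 genes 10 reached 1 FPKM in at least 4 libraries. DEN+CAF+SOR 1 was also highest of its group in stellate cell (247 FPKM), endothelial (114) and Kupffer cell markers (395). The same held for its monocyte and scar macrophage, mesothelium, T and B cell and proliferation markers. It was not the highest in hepatocyte, red blood cell or smooth muscle markers. DEN+SOR 3 was also highest of its group in endothelial, monocyte and scar macrophage, mesothelium and smooth muscle markers. Not every list in DEN+SOR livers followed this order. Kupffer cell markers summed to 159.6 FPKM in DEN+SOR 3 and to 228 and 216 in DEN+SOR 1 and 2, and T and B cell markers to 14.1 in DEN+SOR 3 and 21.3 in DEN+SOR 1. Spp1 is in both the cholangiocyte list and the monocyte and scar macrophage list, so those sums share a gene, and abundant genes weigh most in any sum. The part of any of these cell types in the matrix values was not tested. Smooth muscle markers of vessel walls were largely absent, and 6 of 8 genes (Cnn1, Myh11, Pln, Lmod1, Synpo2 and Actg2) had a median under 0.1 FPKM.

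**Figure D5:**
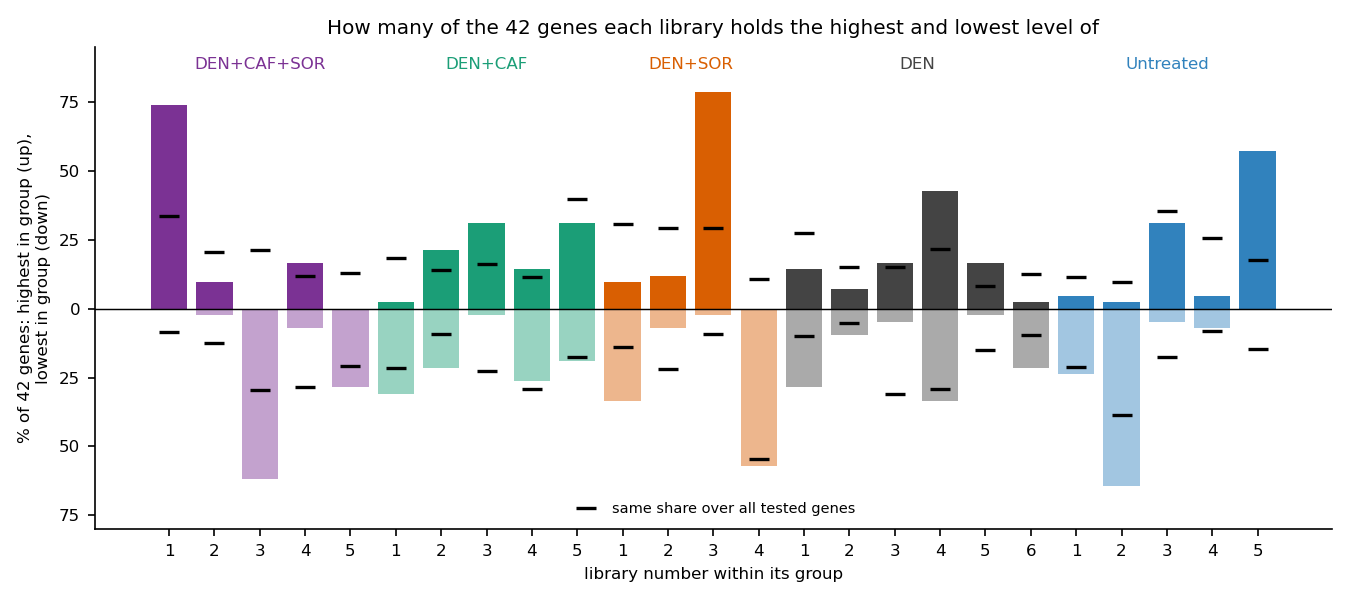
Share of the 42 genes for which each library was the highest (bars upward) or lowest (bars downward) of its group, with the same share over all 12741 tested genes as black ticks. DEN+SOR 3 (78.6%) and DEN+CAF+SOR 1 (73.8%) rise far above their ticks, DEN+CAF+SOR 3 reaches far below its tick (61.9%), and the downward bar of DEN+SOR 4 ends near its tick.

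DEN 4 stood apart in other lists. Its collagen maturation list, the enzymes and chaperones that fold and trim procollagen, summed to 975 FPKM, against 419 to 522 in the other DEN libraries. Monocyte and scar macrophage markers summed to 326 FPKM there, the highest of all 25 libraries, and hepatocyte markers to 89828, also the highest. Its portal fibroblast sum, 58.2, lay within the range of the other DEN libraries.

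Beyond the 42 genes, 6 lists of related genes were counted for DEN against Untreated, and limma called 1 gene in each of 2 of them. Pdgfa, a ligand that drives stellate cells to divide, rose to 4.15 ± 1.47 FPKM in DEN livers, against 1.53 ± 0.379 in Untreated livers (SD, n = 6 and 5). Its log2 fold change was 0.99 (SE 0.20, limma adjusted p = 0.0107), and it was the 1 call among 5 tested genes of the platelet-derived growth factor pathway. Pdgfa also rose in DEN+CAF (1.24, limma adjusted p = 0.00295) and DEN+SOR livers (1.34, limma adjusted p = 0.00228). In DEN+CAF+SOR livers edgeR called it higher, and limma did not call it. Ddr1, a receptor tyrosine kinase that collagen activates, rose to 1.73 ± 1.18 FPKM in DEN livers, against 0.300 ± 0.178 in Untreated livers (0.98, SE 0.23, limma adjusted p = 0.0222), 1 of 13 tested matrix receptors. Limma also called Ddr1 higher in DEN+CAF and DEN+SOR livers, and did not call it in DEN+CAF+SOR livers. Against Untreated 1 and 2 alone the log2 fold changes in DEN livers were 1.10 for Pdgfa and 1.17 for Ddr1. Both were further from 0 than against all 5, and the limma adjusted p were 0.137 and 0.144. That fit called 0.271% of all tested genes and 0 genes of any list counted here. In the drug groups, too, limma called neither gene against Untreated 1 and 2 alone.

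In the other 4 lists limma called none for DEN against Untreated, and the gene with the smallest p is given for each. Of 16 tested other matrix proteins it was Lama5, a laminin chain (0.59, adjusted p = 0.218). Among 13 collagen maturation genes it was Serpinh1, the collagen chaperone (1.10, adjusted p = 0.0933). Of 7 matrix turnover genes it was Mmp7, a protease of duct cells (1.91, adjusted p = 0.138), and in 17 genes of the transforming growth factor beta pathway Bambi, a decoy receptor (0.33, adjusted p = 0.128). Mmp7 was called in DEN+CAF livers, at 10.7 ± 8.24 FPKM against 0.249 ± 0.127 in Untreated livers (2.93, limma adjusted p = 0.0374; 0.270 without the Xist libraries). It was also called in DEN+SOR livers, at 44.5 ± 27.9 FPKM against 0.249 ± 0.127 in Untreated livers (4.63, limma adjusted p = 0.00149; 0.0606 without the Xist libraries). By edgeR, Lama5 and Mmp7 were called for DEN against Untreated as well. The median log2 fold changes of these 4 lists were 0.31, 0.20, 0.31 and 0.11, and those of the growth factor and receptor lists 0.30 and 0.21. Against Untreated 1 and 2 alone they were 0.47, 0.27, 0.50 and 0.31, and 0.42 and 0.31.

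Markers of the cells a piece of liver can hold were counted the same way for DEN against Untreated. Sox9, a transcription factor of bile duct cells, was the 1 call of 10 tested cholangiocyte genes (0.85, limma adjusted p = 0.0210), and Cd63 the 1 call of 6 monocyte and scar macrophage genes (2.33, limma adjusted p = 0.0262). The median log2 fold changes of those lists were 0.77 and 0.85. By edgeR 6 of the 10 cholangiocyte genes were called higher (Sox9, Krt19, Spp1, Muc1, Epcam and Cd24a) and 3 of the 6 monocyte genes (S100a6, Cd63 and Spp1, which is in both lists), beside 2.63% of all tested genes. It also called Cdk1 and Mki67 of the proliferation list higher and Mylk of the smooth muscle list lower, and 0 genes in the other 8 lists. In the other 10 lists limma called 0: hepatic stellate cell (21 tested, median -0.013), portal fibroblast (8, median 0.58), vascular smooth muscle (2, median -0.10), mesothelium (2, median 0.57), liver endothelium (19, median -0.079), Kupffer cell (12, median -0.35), hepatocyte (14, median -0.11), T and B cell (4, median 0.09), red blood cell (5, median -1.17) and proliferation (10, median 0.47). Against Untreated 1 and 2 alone 3 medians changed sign, to 0.21 for stellate cell, 0.042 for smooth muscle and 0.39 for endothelial genes. The medians there were 0.84 for portal fibroblast, 0.83 for mesothelium, -0.11 for Kupffer cell, -0.27 for hepatocyte, 0.34 for T and B cell, -0.65 for red blood cell, 0.57 for proliferation, 0.96 for cholangiocyte and 1.13 for monocyte and scar macrophage genes. In DEN+SOR against DEN all 19 endothelial genes had negative log2 fold changes, with a median of -0.56, and none was called. Against Untreated, Tie1 and Stab2 of that list fell in DEN+SOR livers (-0.84 and -0.94, limma adjusted p = 0.0335 and 0.0378, or 0.235 and 0.291 without the Xist libraries). In the same comparison 9 of 10 cholangiocyte genes were positive, and limma called 7 of them higher, beside 2.62% of all tested genes called. Among the 7 were Epcam and Krt19 (log2 fold changes 1.99 and 1.96). Without the Xist libraries limma called 0 cholangiocyte genes there, beside 0.247% of all tested genes.

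Promoter letters were compared over the 28 of 42 genes that have a RefSeq window. The GC box GGGCGG stood in 19 of the 28 (67.9%), beside 38.2% of the 27025 genes with a window. A CCAAT box was found in 12 (42.9%, beside 41.1%), the SMAD element CAGAC in 15 (53.6%, beside 53.2%), and the AP-1 site TGANTCA in 2, Col6a1 and Ecm1 (7.14%, beside 8.97%). The CArG box, the element of smooth muscle genes, was read strictly as CCWWWWWWGG, with W for A or T. This strict form was in 0 of the 28, beside 1.81% of all genes with a window, and Acta2 was among the 28 while Tagln was not. Variants of these motifs that differ by a letter were not counted, so a promoter without a match can still hold such a variant. Both strands were read, a CArG box can overlap a CCAAT box, and a match is a run of letters and not a bound site.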

How the data were processed

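Liver RNA was sequenced from 25 mice in 5 groups, each library titled as a separate mouse. Per the submitters' processing notes, HISAT2 2.0.5 and featureCounts 1.5.0-p3 were used on GRCm39. Per the labels' protocols, RNA was prepared with QIAzol, RNeasy columns and a SMARTer kit. The strandedness of counting is not given in the sources used here. The deposited tables are named FPKM, but their values do not scale with gene length: the authors deposited a signal equal to reads divided by 1 factor per library. Dividing by the step of each library gave whole reads for 100% of values (tolerance 0.01 read). FPKM was computed from these reads, the library total and the deposited gene length, and was tested in place of the deposited values. The number of columns left unused was 0.

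Genes in all 5 tables (24774 of 30524) with at least 1 FPKM in at least 4 libraries were tested (12741) on log2(FPKM + 1) values. The test was limma's (version 3.58.1, R 4.3.3). The fit held 5 group means, with 20 residual degrees of freedom and a mean trend in the variance, and p-values were adjusted over all tested genes (Benjamini-Hochberg, 0.05). On the recovered reads, edgeR 4.0.16's quasi-likelihood test (598 genes called for DEN against Untreated) and DESeq2 1.42.0 were the alternatives. The main limma fit and the edgeR fit were tested on simulated data, and the other fits were not. Other alternatives changed the pseudocount, the filter, the scaling, a batch term, a replicate block, and the libraries used.

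The 42 genes and all lists were chosen with earlier results of these data known. For the gene of each role with the largest log2 fold change in DEN against Untreated, values are given in every library outside the DEN group. For DEN livers the lowest, median and highest values are given. Genes called by edgeR for DEN or DEN+SOR against Untreated were added after their values were seen. From each pathway list, the called genes or else the gene with the smallest p are named. Genes of other lists named beyond this rule were also chosen after their values were seen. Library depth, 14750278 to 21992613 reads, sets the precision of genes with few reads. Promoter windows are those of RefSeq on GRCm38.p6, and no protein sequence was used here.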

Additional observations from a re-analysis of the deposited data

Results flagged for a closer look

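For each of the 42 genes in each of the 5 groups, 210 sets of libraries in all, the highest or lowest library was set against the gap to its nearest neighbour (Dixon's test at the 95% level). Chance flags about 1 in 20 such sets where values are normal. FPKM values were used without logs and the genes share libraries, so the share flagged cannot be held against that rate. In all, 22 (10.5%) were flagged. DEN 4 accounts for 9 of the 22, always as the highest DEN library. Its levels were 2.67 FPKM for Col1a1, 14.4 for Col4a1, 10.6 for Col4a2, 3.07 for Lamc1 and 21.5 for Nid1. They were 101 FPKM for Fn1, 193 for Sparc, 34.8 for Timp1 and 4.57 for Acta2. The other 5 DEN libraries reached at most 1.07 FPKM for Col1a1, 3.86 for Col4a1, 3.53 for Col4a2, 1.76 for Lamc1 and 3.85 for Nid1. They reached at most 77.8 FPKM for Fn1, 42.4 for Sparc, 3.48 for Timp1 and 1.49 for Acta2.

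DEN+CAF+SOR 1 was the highest of its group for Col5a2 (1.16 FPKM), Loxl1 (2.02 FPKM) and Mmp2 (3.14 FPKM), and DEN+CAF+SOR 3 the lowest for Col5a1 (0.204 FPKM). DEN+SOR 3 was the highest of its group for Col5a2 (0.919 FPKM), Eln (0.900 FPKM) and Lox (0.401 FPKM). In DEN+CAF livers the flagged values were 2.31 FPKM of Col4a2 in DEN+CAF 1, the lowest, 1.32 FPKM of Mmp2 in DEN+CAF 2 and 4.79 FPKM of Nid1 in DEN+CAF 5. In DEN livers they were also 162 FPKM of Col18a1 in DEN 1 and 0.655 FPKM of Loxl1 in DEN 5. Among Untreated livers the only flagged value was 7.20 FPKM of Vim in Untreated 5.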

How the results depend on the processing

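By limma 0 of the 33 tested genes were called in each comparison. Beside each count, the share of all tested genes called under the same setting stands in brackets. For DEN against Untreated the count was 2 with a pseudocount of 0.1 (2.86%), 1 with TMM scaling (3.47%), 4 with mitochondrial reads left out of the total (2.42%), 2 with a batch term for libraries numbered 3 and 4, which include the 4 with over 20% mitochondrial reads (3.74%), 8 by edgeR (4.69%), 9 by DESeq2 (8.16%), 1 by edgeR without DEN 4 (2.58%), and 0 to 2 leaving out 1 library at a time (2 without DEN 1, 2.51%). For DEN+CAF against Untreated it was 1 by DESeq2 (3.62%) and 2 by edgeR without DEN 4 (2.84%). For DEN+SOR against Untreated it was 1 with the pseudocount (3.27%), 2 with TMM scaling (4.23%), 1 with the batch term (4.21%), 2 by edgeR (4.14%), 4 by DESeq2 (9.38%), 4 by edgeR without DEN 4 (7.22%), and 0 to 2 leaving out 1 library of these groups at a time (2 without Untreated 2, 2.08%, or DEN+SOR 2, 3.69%). By limma without DEN 4, which is in neither group, it was 1 (4.10%). For DEN+CAF+SOR against Untreated it was 5 by DESeq2 (3.10%) and 4 by edgeR without DEN 4 (2.31%). Across all 5 groups it was 1 by edgeR (2.17%) and 8 by DESeq2 (6.58%). The cause of these differences was not tested. The other 124 counts under alternative settings and 133 with 1 library of the groups compared left out stayed at 0, among them every comparison between carcinogen-treated groups. The log2 fold change of Tgfb1 for DEN against Untreated turned to -0.013 by edgeR without DEN 4. Leaving mitochondrial reads out moved the median log2 fold change of all tested genes by 0.10 for DEN+SOR against Untreated, and by less than that in every other comparison, as TMM scaling did in all of them. Alternatives without libraries over 20% mitochondrial reads, without DEN 4 together with the Untreated libraries that hold Xist reads, and by edgeR without either were chosen after seeing the data.

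With the replicate number of the labels as a block, 0 of the 33 genes were called in each comparison, and 359 of all tested genes for DEN against Untreated, beside 260 without it. The labels give no shared source to a number. Over 46 pairs of same-numbered libraries the correlation of deviations ran from -0.28 to 0.54, and 25 were over 0.1. The median was 0.13, beside -0.026 over pairs of libraries from different groups with different numbers. Genes with few reads, such as Timp1, Lox and Col1a1, are limited by depth.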
